A study of Homo sapiens with 2 samples.

Results

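The genes of the translation initiation factors (eIFs) and elongation factors (eEFs) were compared between PLC/PRF/5 cells kept for 24 h in 6 µM JIB-04 and PLC/PRF/5 cells kept in DMSO. PLC/PRF/5 is an established human hepatocellular carcinoma cell line, JIB-04 is a small molecule that inhibits Jumonji histone demethylases, and DMSO is its solvent. A gene was a member when its current NCBI symbol, looked up by the gene ID in the deposited files, is EIF or EEF followed by a digit, and 2 pseudogenes were left out. This rule gave 73 of 27685 genes, 67 of them protein-coding and 6 of them noncoding. Polyadenylated RNA was sequenced with a stranded kit, and there was 1 library per condition, so no test across replicates could be made and no p-value is given. A label of the control sample calls it untreated, but DMSO is named in its title and in the study's methods and is used here.

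Levels are given as TPM, the number of transcripts of a gene per 1000000 transcripts after division by transcript length, summed over the annotated transcripts of the gene. The change is the log2 ratio of TPM + 1, JIB-04 over DMSO, so a negative value is a lower level with JIB-04. It is printed with a 95% interval from the estimated number of sequenced fragments of that gene, which covers counting error only and leaves out differences between cultures or library preparations. The estimate came to 23721989 fragments for the JIB-04 library and 28187793 for the DMSO library. TPM is a share of the library, so a lower TPM cannot be told apart from a rise of other transcripts, nor fewer cells expressing a gene from less RNA per cell. In all, 65 members reached 1 TPM in either library and are described here. EIF1AY, EIF4E1B, EIF4E3, EIF4EBP3, EEF1E1-BLOC1S5, EIF1AX-AS1, EIF1B-AS1 and EIF2AK3-AS1 did not reach it.

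Translation starts when a ternary complex of eIF2, GTP and initiator tRNA joins the small ribosomal subunit with eIF1, eIF1A, eIF3 and eIF5, and the cap-binding complex eIF4F (eIF4E, eIF4G and eIF4A) brings in the mRNA. eIF2B reloads eIF2 with GTP, and phosphorylation of eIF2 by the EIF2AK kinases blocks this step. 4E-BP proteins, encoded by the EIF4EBP genes, hold eIF4E away from eIF4G. During elongation eEF1A delivers the aminoacyl-tRNA, the eEF1B subunits recharge eEF1A, and eEF2 moves the ribosome by a codon. Many mRNAs of the translation machinery begin with a 5' terminal oligopyrimidine (TOP) tract, a C followed by a run of C or T bases, through which mTOR signaling controls their translation.

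TOP tracts were looked up at the annotated RefSeq transcript starts on GRCh38.p14. A start was counted when its base was C and at least 4 more C or T bases followed, read on the transcribed strand only. Of 51 described members with a listed start, 12 (23.5%) had such a start, against 801 of 11101 described genes (7.22%) and 47 of 69 genes of cytosolic ribosomal proteins (68.1%). Below are 6 of these 12, namely the factors EEF1A1, EEF2 and EIF4B, whose level was close to that in DMSO, and the lowest and highest log2 ratios among the 12 (EIF2D, EIF3M and EIF3D). Each line shows 12 bases before the start and 18 from it, 5' to 3'. The C and T run is in capitals from the start onward, and C or T bases just before the start stay in lower case.
EEF1A1: gccgtgaacgttCTTTTTCgcaacgggttt
EEF2: gacgtcagcgttCTCTTCCgccgtcgtcgc
EIF4B: cctcatccgggtCTTTTgcgttctctttcc
EIF2D: ttccagccgggcCCTTTTCgcggccgggcc
EIF3M: cggcccagttccCTTTTCCggtcggcgtgg
EIF3D: cgcgcatgtttcCTCTTTTCCTggtttctc
The windows are chr6:73521015-73521044 on the minus strand for EEF1A1, chr19:3985446-3985475 on the minus strand for EEF2, and chr12:53006444-53006473 on the plus strand for EIF4B. Those of EIF2D, EIF3M and EIF3D are chr1:206612448-206612477 (minus), chr11:32583819-32583848 (plus) and chr22:36529149-36529178 (minus). The other 6 were EEF1B2, EIF2A, EIF2S3, EIF3F, EIF3K and EIF4A2. The 12 members with a TOP start had a median log2 ratio of -0.21, from -0.75 to 0.51, and 2 of them (16.7%) were at least 1.5-fold lower with JIB-04, beside a median of -0.20 and 22.0% lower among the 801 described genes with such a start. The rule left out 22 of the 69 genes of cytosolic ribosomal proteins, so a gene that was not counted may still have a TOP tract. The 39 members with a listed start that was not counted had a median of -0.31, from -1.22 to 0.58. Of these 39, 8 (20.5%) were at least 1.5-fold lower, beside a median of -0.15 and 20.5% among the 10300 described genes not counted. Both shares of members rest on few genes and lay near those of all described genes.

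Over all 65 members the level of factor mRNA was slightly lower in the JIB-04 library. The members summed to 18954 TPM with JIB-04 (1.90% of the library) and 19949 TPM with DMSO (1.99%). Their median log2 ratio was -0.28, beside -0.15 for the 14450 genes that reached 1 TPM in either library. Of the members, 49 were below 0 and 16 above it, beside 8711 and 5739 of all described genes. The members were spread less than all described genes, with an SD of their log2 ratios of 0.53 against 0.70. However, 63 of the 65 members had at least 10 TPM in either library, and the SD was not compared among genes of similar level. At least 2-fold higher were 2 members (3.08%), EEF1A2 and EEF1AKMT3, where 5.99% of all described genes were. At least 2-fold lower were 4 members (6.15%), EEF2KMT, EIF2B3, EEF1E1 and EIF1AD, where 6.88% of all described genes were. At 1.5-fold, EIF4EBP1 joined the higher members (3 of 65, against 12.8% of all described genes), and 13 members were lower (20%, against 21.0%). The shares of lower members were thus near those of all genes. Within 1.5-fold lay 49 of 65 members, beside 9567 of all 14450 described genes. When the median of the 9007 genes with at least 10 TPM in both libraries was set to 0, a shift of 0.15, 22 members were above 0 in place of 16, and the members' median was -0.13. The members past 2-fold then split into 2 higher and 2 lower (50% higher) in place of 33.3% higher, and all described genes past 2-fold into 62.2% higher in place of 46.5%. EEF1A1, EEF1D, EEF1AKMT1, EIF4B, EIF4G2 and EIF4EBP2 changed sign under that scaling and are therefore given no direction below.

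**Figure D1:**
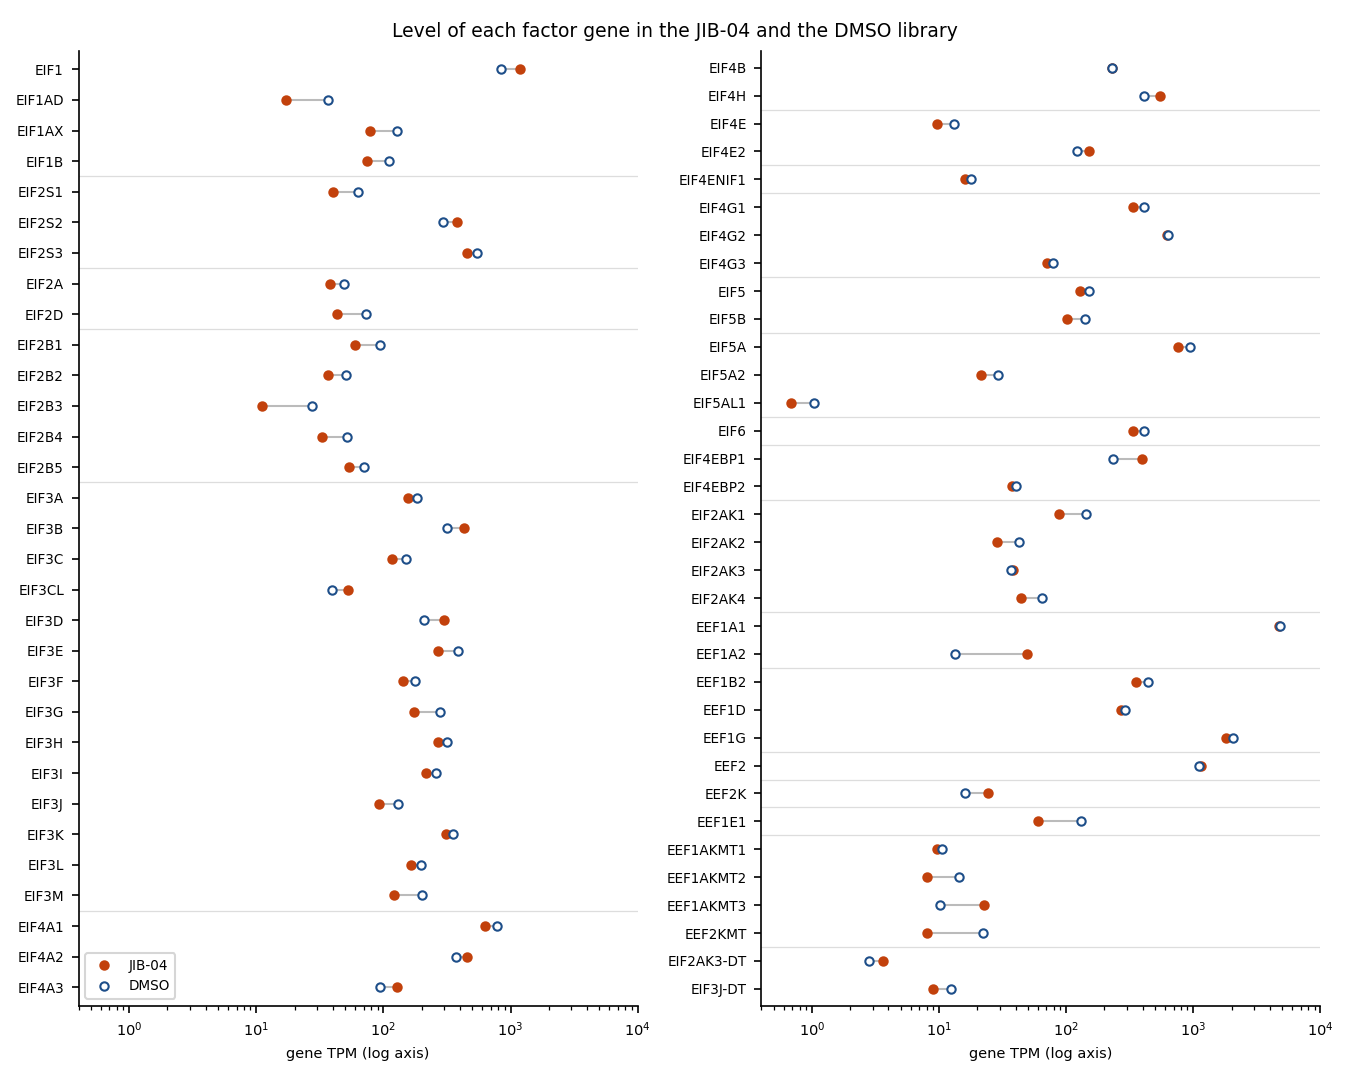
Gene TPM on a log axis for the 65 described members, grouped by factor with lines between groups, filled for the JIB-04 library and open for the DMSO library. Levels run from 0.680 (JIB-04) and 1.03 TPM (DMSO) for EIF5AL1 to 4688 (JIB-04) and 4773 TPM (DMSO) for EEF1A1, and the widest gaps between both libraries are those of EEF1A2, EEF2KMT and EIF2B3.

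The 45 described initiation factor genes lay at a median log2 ratio of -0.29, with 34 of them below the median of all described genes. Below 0 were 36 and above it 9, beside 8711 and 5739 of all 14450 described genes. None of the 45 was at least 1.5-fold higher, beside 12.8% of all described genes, and 9 were at least 1.5-fold lower (20%, beside 21.0%). By TPM, the genes of eIF1, eIF1A and related proteins differed in direction. EIF1, which keeps the scanning ribosome open until a start codon is found, had 1186 TPM with JIB-04 and 848 TPM with DMSO (log2 ratio 0.48, 95% interval 0.45 to 0.52), and all 4 of its exons were higher. Its close relative EIF1B had 74.0 TPM with JIB-04 and 109.7 TPM with DMSO (-0.56, -0.69 to -0.43). EIF1AX, the X-linked gene of eIF1A, had 78.1 TPM with JIB-04 and 129.0 TPM with DMSO (-0.72, -0.78 to -0.66). EIF1AD, which encodes a protein with an eIF1A-like domain, had 17.1 TPM with JIB-04 and 36.5 TPM with DMSO (-1.05, -1.20 to -0.90). For EIF1AX and EIF1AD the difference was uneven along the gene, and their exons are described further on.

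Among the subunits of eIF2, which carries the initiator tRNA, the levels diverged. EIF2S1, the alpha subunit that the EIF2AK kinases phosphorylate, had 40.1 TPM with JIB-04 and 63.0 TPM with DMSO (log2 ratio -0.64, -0.72 to -0.55), with 8 of 8 exons lower. EIF2S2, the beta subunit, had 378 TPM with JIB-04 and 293 TPM with DMSO (0.36, 0.32 to 0.40), with 9 of 9 exons higher. EIF2S3, the gamma subunit that binds GTP and the tRNA, had 458 TPM with JIB-04 and 542 TPM with DMSO (-0.24, -0.27 to -0.21). In both libraries the mRNA of the alpha subunit was the least abundant of the 3 per length. EIF2D and EIF2A, factors that can bring initiator tRNA to the ribosome without eIF2, were both lower with JIB-04. EIF2D had 43.1 TPM with JIB-04 and 73.0 TPM with DMSO (-0.75, -0.86 to -0.63), and EIF2A had 38.03 TPM with JIB-04 and 49.3 TPM with DMSO (-0.37, -0.46 to -0.27).

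All 5 genes of eIF2B, the exchange factor that reloads eIF2 with GTP, were lower with JIB-04, and each also lay below the median of all described genes. Their median log2 ratio was -0.64, and 3 of 5 (60%) were at least 1.5-fold lower, beside 21.0% of all described genes. EIF2B3, the gamma subunit (gene ID 8891, chr1:45316194-45452394 on hg19), had 11.2 TPM with JIB-04 and 27.5 TPM with DMSO, 0.407 times the DMSO level (log2 ratio -1.22, -1.44 to -1.01). Every one of its 12 exons was lower, by log2 ratios between -1.95 and -0.69. EIF2B1, the alpha subunit through which phosphorylated eIF2 is sensed, had 59.4 TPM with JIB-04 and 93.5 TPM with DMSO (-0.65, -0.75 to -0.54). EIF2B4, the delta subunit, had 32.9 TPM with JIB-04 and 51.9 TPM with DMSO (-0.64, -0.79 to -0.50). EIF2B2, the beta subunit, had 36.4 TPM with JIB-04 and 50.9 TPM with DMSO (-0.47, -0.62 to -0.32). EIF2B5, the catalytic epsilon subunit, was the least lowered of the 5 at 53.5 TPM with JIB-04 and 70.5 TPM with DMSO (-0.39, -0.48 to -0.30). All exons of EIF2B1, EIF2B2, EIF2B4 and EIF2B5 were lower as well. Under the median scaling described above, the eIF2B median was -0.49, and EIF2B1 (-0.50) and EIF2B4 (-0.49) lay within 1.5-fold.

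The 14 genes of eIF3, the large scaffold that holds the small subunit and the mRNA together, lay at a median of -0.26 on the log2 scale. They ranged from -0.74 to 0.51, with 11 below 0 and 3 above, beside 8711 and 5739 of all 14450 described genes. EIF3D, the subunit that can itself bind the cap of some mRNAs, had 299 TPM with JIB-04 and 209.9 TPM with DMSO (0.51, 0.45 to 0.56). EIF3B, a core scaffold subunit, had 429.5 TPM with JIB-04 and 318 TPM with DMSO (0.43, 0.39 to 0.47), with 19 of 19 exons higher. At the other end were EIF3M and EIF3G, the only eIF3 genes at least 1.5-fold lower (14.3%, beside 21.0% of all described genes). EIF3M had 121 TPM with JIB-04 and 203 TPM with DMSO (-0.74, -0.82 to -0.66). The difference was uneven along EIF3M: exons 7, 8 and 9 were at -0.99, -1.95 and -1.10, and its other exons lay between -0.65 and -0.46. EIF3G, which contacts the mRNA, had 176 TPM with JIB-04 and 279.6 TPM with DMSO (-0.67, -0.75 to -0.59). EIF3E had 269.7 TPM with JIB-04 and 386 TPM with DMSO (-0.52, -0.57 to -0.46), and the loosely bound subunit EIF3J had 92.2 TPM with JIB-04 and 131 TPM with DMSO (-0.50, -0.58 to -0.43). The subunits EIF3A, EIF3F, EIF3H, EIF3I, EIF3K and EIF3L ranged from -0.31 (EIF3F) to -0.18 (EIF3K). EIF3A, the largest of them, had 155 TPM with JIB-04 and 183 TPM with DMSO.

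EIF3C and EIF3CL are near-identical copies, and the files place both at the same 2 places on chromosome 16 (chr16:28390903-28415209 and chr16:28722738-28747050 on hg19), so how reads were split between them is uncertain. EIF3C had 116 TPM with JIB-04 and 149 TPM with DMSO (log2 ratio -0.36, -0.42 to -0.30), and EIF3CL had 53.0 TPM with JIB-04 and 39.7 TPM with DMSO (0.41, 0.31 to 0.51). Summed, both copies had 169 TPM with JIB-04 and 189 TPM with DMSO (-0.16, -0.21 to -0.11), which is close to the median of all described genes.

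In the cap-binding complex and its helpers, the helicase genes differed among themselves. EIF4A1, the main RNA helicase of eIF4F, had 635 TPM with JIB-04 and 787 TPM with DMSO (log2 ratio -0.31, -0.34 to -0.27), with 11 of 11 exons lower. All exons of EIF4A1 also belong to the annotated read-through gene SENP3-EIF4A1. EIF4A2, the second helicase, had 456.5 TPM with JIB-04 and 373 TPM with DMSO (0.29, 0.25 to 0.33), with 11 of 11 exons higher. EIF4A3, a member of the exon junction complex, had 128 TPM with JIB-04 and 94.4 TPM with DMSO (0.44, 0.35 to 0.53), with 12 of 12 exons higher. EIF4H, which stimulates the helicase, had 543 TPM with JIB-04 and 412 TPM with DMSO (0.40, 0.36 to 0.43), and the related EIF4B had 228 TPM with JIB-04 and 231 TPM with DMSO (-0.02, -0.06 to 0.02).

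The scaffold genes of eIF4G differed little. EIF4G1, the main scaffold, had 337 TPM with JIB-04 and 411 TPM with DMSO (log2 ratio -0.29, -0.31 to -0.26), and each of its 33 exons was lower. EIF4G2, which lacks the site for eIF4E, had 627 TPM with JIB-04 and 636 TPM with DMSO (-0.02), and EIF4G3 had 70.2 TPM with JIB-04 and 79.4 TPM with DMSO (-0.18, -0.23 to -0.12). EIF4E2, a cap-binding relative of eIF4E, had 151 TPM with JIB-04 and 122 TPM with DMSO (0.31, 0.22 to 0.39), with 7 of 7 exons higher. EIF4ENIF1, the transporter that carries eIF4E into the nucleus, had 15.9 TPM with JIB-04 and 17.8 TPM with DMSO (-0.16, -0.31 to -0.01).

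EIF4E, the cap-binding protein, had 9.70 TPM with JIB-04 and 13.0 TPM with DMSO (log2 ratio -0.39, -0.49 to -0.29), a low value that follows the annotated length. Its leading annotated transcript has 11523 bases, of which the last exon takes 9459. On the TPM scale, the coverage of its 5 inner exons, averaged by length and summed over all transcripts of the gene, was 156 with JIB-04 and 189 with DMSO, while that of the last exon was 2.95 with JIB-04 and 5.14 with DMSO. Counted on its inner exons the gene was thus at -0.27. EEF1A1 showed the same kind of gap, with 11184 (JIB-04) and 11200 (DMSO) on its inner exons and 874 (JIB-04) and 1004 (DMSO) on a last exon of 2185 bases. A TPM of these genes is an average over bases that most of their fragments did not cover.

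By TPM the factors of subunit joining and beyond were all below 0, but on their inner exons EIF5 was at 0.26 and EIF5A2 at 0.02, as described with the exons. EIF5, which triggers GTP hydrolysis by eIF2, had 129 TPM with JIB-04 and 151 TPM with DMSO (log2 ratio -0.22, -0.26 to -0.18). EIF5B, the GTPase that joins the large subunit, had 102 TPM with JIB-04 and 141 TPM with DMSO (-0.46, -0.51 to -0.41), with 24 of 24 exons lower. EIF6, which keeps free large subunits apart from small subunits, had 335 TPM with JIB-04 and 409 TPM with DMSO (-0.29, -0.35 to -0.23). EIF5A, the factor that carries the modified amino acid hypusine and helps stalled ribosomes, had 757 TPM with JIB-04 and 937 TPM with DMSO (-0.31, -0.34 to -0.27). Its paralog EIF5A2 had 21.2 TPM with JIB-04 and 29.1 TPM with DMSO (-0.44, -0.54 to -0.34). EIF5AL1, a copy of EIF5A whose reads may be shared with it, had 0.680 TPM with JIB-04 and 1.03 TPM with DMSO (-0.28, -0.62 to 0.05).

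**Figure D2:**
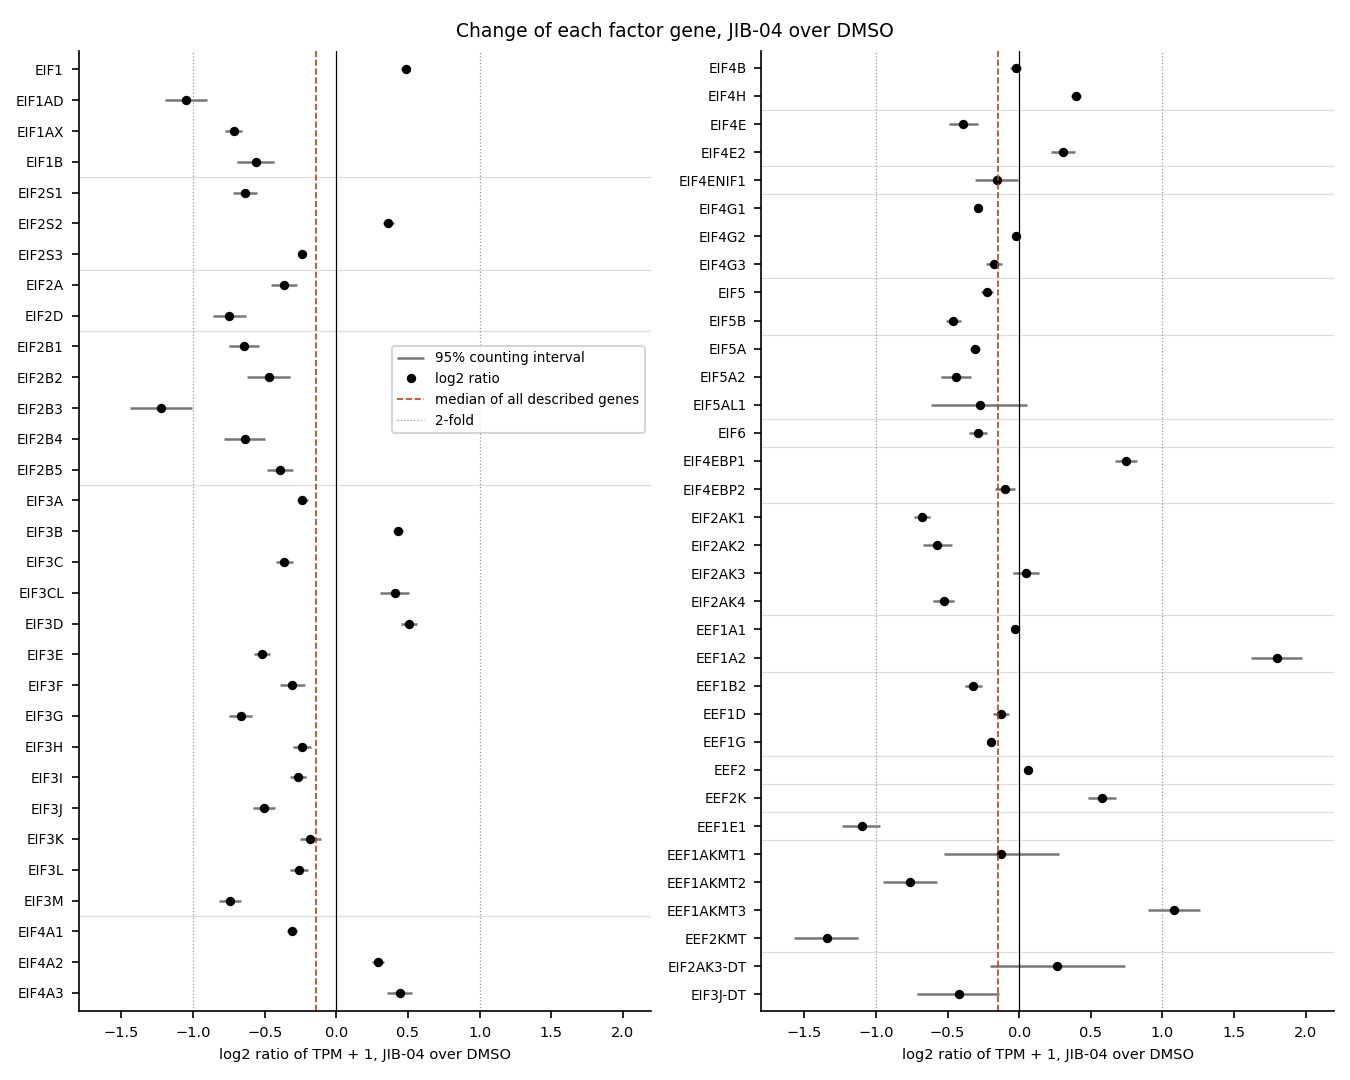
Log2 ratio of TPM + 1, JIB-04 over DMSO, of each described member (points) with its 95% counting interval (bars), the median of all described genes at -0.15 (dashed) and 2-fold in either direction (dotted). All 5 eIF2B genes lie left of the dashed line, and EEF1A2 at 1.80 and EEF2KMT at -1.34 are the ends of the range.

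The genes that regulate initiation from outside the factors differed by family. EIF4EBP1, which encodes 4E-BP1, an inhibitor of eIF4E and a target of mTOR, had 393.7 TPM with JIB-04 and 234 TPM with DMSO, 1.68 times the DMSO level (log2 ratio 0.75, 0.67 to 0.82). Its 3 exons were all higher, by log2 ratios between 0.51 and 0.82. EIF4EBP2, which encodes a second 4E-BP, had 37.6 TPM with JIB-04 and 40.2 TPM with DMSO (-0.10, -0.17 to -0.03). Of the 4 kinases of eIF2, 3 were below the median of all described genes, and the median of the 4 was -0.55. Counted on the inner exons alone, the kinases had a median of -0.21 (EIF2AK1 -0.04, EIF2AK2 -0.38, EIF2AK3 0.16, EIF2AK4 -0.51), and only EIF2AK2 and EIF2AK4 lay below -0.15, the median of all described genes by TPM. EIF2AK1 (HRI), which responds to heme shortage and to mitochondrial stress, had 88.5 TPM with JIB-04 and 142 TPM with DMSO (-0.68, -0.73 to -0.62). EIF2AK2 (PKR), the sensor of double-stranded RNA, had 28.5 TPM with JIB-04 and 42.8 TPM with DMSO (-0.57, -0.67 to -0.47). EIF2AK4 (GCN2), the sensor of amino acid shortage, had 44.2 TPM with JIB-04 and 64.2 TPM with DMSO (-0.53, -0.60 to -0.46), and each of its 39 exons was lower. EIF2AK3 (PERK), the sensor of the endoplasmic reticulum, had 38.5 TPM with JIB-04 and 37.1 TPM with DMSO (0.05, -0.04 to 0.14). Of the noncoding members, EIF3J-DT had 8.99 TPM with JIB-04 and 12.4 TPM with DMSO (-0.42, -0.71 to -0.14), and EIF2AK3-DT had 3.61 TPM with JIB-04 and 2.84 TPM with DMSO (0.27, -0.21 to 0.74).

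Of the 6 elongation factors proper, 5 lay within 1.5-fold of their DMSO levels, beside 9567 of all 14450 described genes. These 5 ranged from -0.32 (EEF1B2) to 0.06 (EEF2), and EEF1A2 was the exception. EEF1A2 (gene ID 1917, chr20:62119365-62130668 on hg19), the form of eEF1A known from neurons and muscle and from some tumors, had 49.0 TPM with JIB-04 and 13.4 TPM with DMSO, 3.66 times the DMSO level (log2 ratio 1.80, 1.62 to 1.98). All 8 of its exons were higher, by log2 ratios between 1.11 and 1.97, and 98.4% of the described genes had a lower ratio. EEF1A1, the form found in most cells, was the most abundant member with 4688 TPM with JIB-04 and 4773 TPM with DMSO (-0.03, -0.04 to -0.02). EEF1A2 therefore stayed a small part of the eEF1A mRNA in both libraries. EEF2, the translocase, had 1156 TPM with JIB-04 and 1106 TPM with DMSO (0.06, 0.04 to 0.08). The eEF1B genes were between -0.32 and -0.13: EEF1B2 had 354 TPM with JIB-04 and 442 TPM with DMSO (-0.32), EEF1G had 1798 TPM with JIB-04 and 2058 TPM with DMSO (-0.20), and EEF1D had 268 TPM with JIB-04 and 292 TPM with DMSO (-0.13).

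Of the 6 genes that modify or accompany the elongation factors, 1 was at least 2-fold higher (16.7%, beside 5.99% of all described genes). At least 2-fold lower were 2 of the 6 (33.3%, beside 6.88%), and the median of the 6 was -0.44. EEF2K, the kinase that phosphorylates eEF2 and slows elongation, had 24.3 TPM with JIB-04 and 15.9 TPM with DMSO (log2 ratio 0.58, 0.48 to 0.68), with 18 of 18 exons higher. EEF2KMT (gene ID 196483, chr16:5134301-5147821 on hg19), which methylates a lysine of eEF2, had 8.09 TPM with JIB-04 and 22.1 TPM with DMSO, 0.366 times the DMSO level (-1.34, -1.57 to -1.12). Its 8 exons were all lower, by log2 ratios between -2.43 and -1.15. EEF2KMT belongs to a family of similar copies, so some of its reads may be shared with them. EEF1E1 (gene ID 9521, chr6:8073593-8102828 on hg19), an auxiliary protein of the multi-tRNA synthetase complex, had 60.0 TPM with JIB-04 and 129.9 TPM with DMSO, 0.462 times the DMSO level (-1.10, -1.23 to -0.97). All 4 of its exons were lower, by log2 ratios between -1.39 and -0.91, and under the median scaling its log2 ratio was -0.95.

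Among the 3 members that encode methyltransferases of eEF1A, 1 was higher, 1 was lower and EEF1AKMT1 is given no direction. EEF1AKMT3 (gene ID 25895, chr12:58166383-58176324 on hg19) had 22.8 TPM with JIB-04 and 10.2 TPM with DMSO, 2.22 times the DMSO level (log2 ratio 1.08, 0.90 to 1.26). Its last exon, 2287 bases long and 84.7% of the transcript, was at 1.15, whereas exons 1 and 2 were at 0.44 and 0.70. It was under 2-fold with FPKM (0.97), with a pseudocount of 5 (0.87) and on its inner exon alone (0.70). EEF1AKMT2 had 8.08 TPM with JIB-04 and 14.4 TPM with DMSO (-0.76, -0.95 to -0.57), with 6 of 6 exons lower. EEF1AKMT1 had 9.63 TPM with JIB-04 and 10.6 TPM with DMSO (-0.12), and its interval of -0.53 to 0.28 is the widest of the 3.

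The exons were read to see whether a change ran along the whole gene. The coverage of each exon of the leading transcript was summed over all transcripts of the gene and put on the TPM scale, and this look was chosen after the values were seen. In 3 of 63 members with enough coverage (4.76%) the log2 ratio of the last exon was at least 1 below that of the inner exons, beside 2.85% of 10091 described genes. These were EIF2AK1, EIF1AD and EIF5. The 14 other exons of EIF2AK1 (chr7:6061878-6098860 on hg19) lay between -0.36 and 0.10, and the inner ones averaged 211 with JIB-04 and 216 with DMSO (-0.04). Its last exon, 2555 bases long, had 13.9 with JIB-04 and 102 with DMSO (-2.80). The lower TPM of this kinase was thus seen almost wholly in its last exon.

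EIF1AD (gene ID 84285, chr11:65764016-65769637 on hg19) showed the same shape. Its exons 1 to 5 had log2 ratios from 0.08 to 0.67, and the inner exons averaged 57.15 with JIB-04 and 48.0 with DMSO (0.25). The last exon of 2199 bases, 79.4% of the transcript, had 6.06 with JIB-04 and 33.2 with DMSO (-2.28). On its inner exons EIF1AD was thus above its DMSO level, opposite to its TPM. EIF5 (chr14:103800339-103811361 on hg19) had 337 with JIB-04 and 281 with DMSO on its inner exons (0.26), also opposite to its TPM, and 52.9 with JIB-04 and 107 with DMSO on a last exon of 4062 bases. EIF1AX came next, with -0.27 on its inner exons and -1.23 on a last exon of 3794 bases, at 35.3 with JIB-04 and 84.0 with DMSO. EIF5A2 had 82.9 with JIB-04 and 81.7 with DMSO on its inner exons (0.02), and its last exon of 5005 bases, 90.4% of the transcript, had 15.9 with JIB-04 and 24.6 with DMSO (-0.60). In the last exon of a coding transcript lies as a rule most of the 3' untranslated region. The division of reads among overlapping transcripts of a gene drops out of these sums where their exons have the same bounds. Where exons overlap only in part, it can enter them.

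A last exon at least 1 above the inner exons was seen in 1 member, EIF3CL (1.59%, beside 1.36% of all described genes), whose reads are shared with EIF3C. Over the 63 members the last exon lay below the inner exons in 39, beside 6085 of the 10091 described genes with enough coverage. The median difference was -0.06, against -0.07 over these described genes. Counted on the inner exons alone, EEF1A2 (1.80), EEF2KMT (-1.37), EIF2B3 (-1.29) and EEF1E1 (-1.07) were at least 2-fold apart, and EEF1AKMT3 and EIF1AD were not. In 6 of 63 members the inner exons had the opposite sign to the gene TPM, namely EIF1AD, EIF5, EIF5A2, EIF3CL, EIF4B and EIF4G2.

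**Figure D3:**
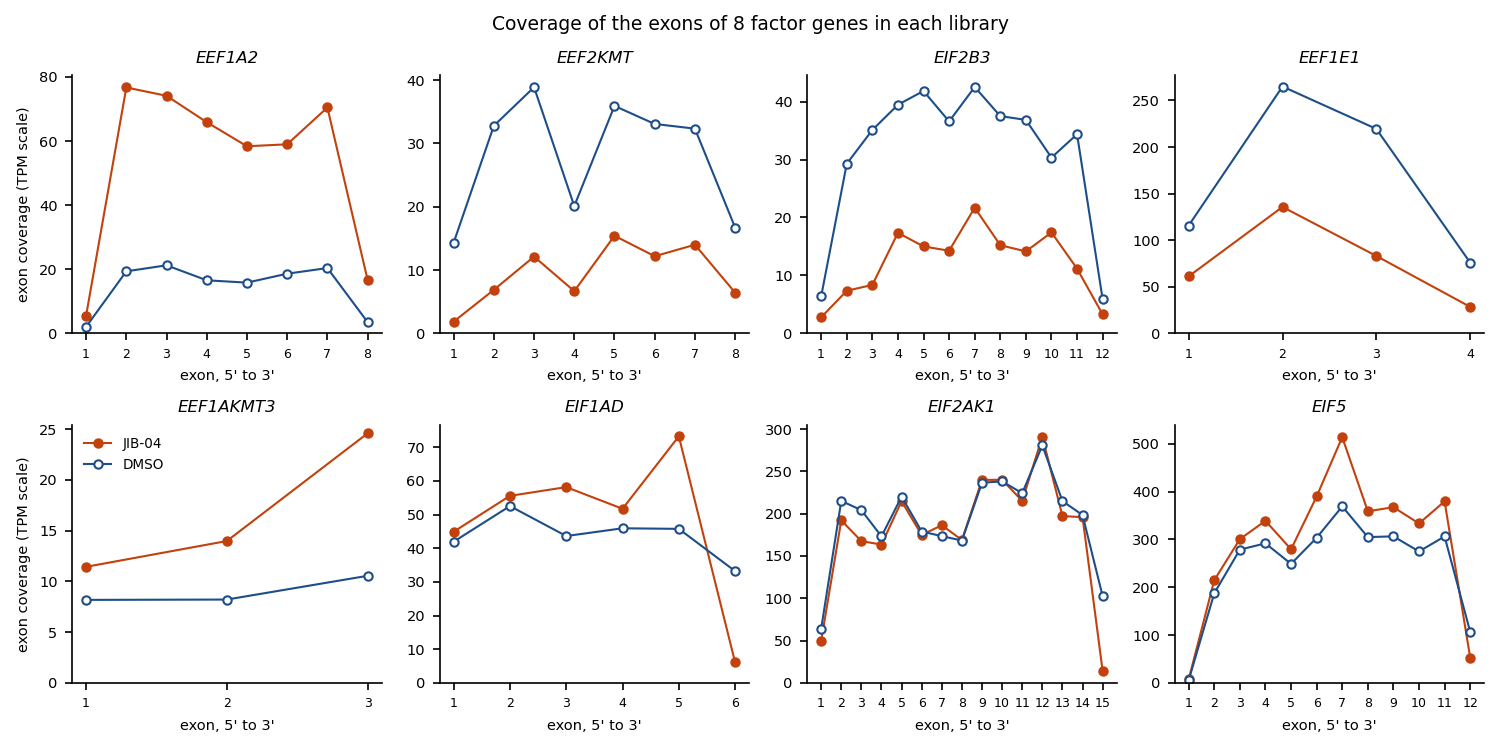
Coverage of each exon on the TPM scale, from the 5' to the 3' end of the leading transcript, for 8 members (filled, JIB-04; open, DMSO; lines join exons of 1 library). EEF1A2 is higher and EEF2KMT, EIF2B3 and EEF1E1 are lower at every exon, whereas EIF1AD, EIF2AK1 and EIF5 are near or above the DMSO level in most exons and below it in the last.

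Of the 63 members with at least 10 TPM in either library, 36 had more than 1 annotated transcript. In 4 of these (11.1%) the share of a transcript differed by at least 20 percentage points between libraries, beside 17.3% of the 6569 genes of this kind in the series. The transcripts of a gene overlap, so these shares are model estimates. In EIF6 the transcript NM_181468, with 6 exons, had 21.4 TPM with JIB-04 and 144 TPM with DMSO (6.38% of the gene with JIB-04 and 35.1% with DMSO). The transcript NM_002212, with 7 exons, had 232 TPM with JIB-04 and 169.7 TPM with DMSO (69.3% with JIB-04 and 41.5% with DMSO). The coverage of EIF6, summed over transcripts, had log2 ratios between -0.41 and 0.04 at the exons of the leading transcript.

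In EIF4E the transcript NM_001968 held 86.3% of the gene with JIB-04 and 46.9% with DMSO, and NM_001331017 held 6.96% with JIB-04 and 38.3% with DMSO. Taken alone, NM_001968 was higher with JIB-04 (8.37 TPM, against 6.10 TPM with DMSO), opposite to the gene. In EIF2B4 the transcript NM_001318966 held 17.9% with JIB-04 and 44.3% with DMSO, at 5.88 TPM with JIB-04 and 23.0 TPM with DMSO. In EIF3C the copy NM_003752_dup1 held 14.9% with JIB-04 and 51.9% with DMSO, and the rest was spread over 9 other entries of both places on chromosome 16.

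**Figure D4:**
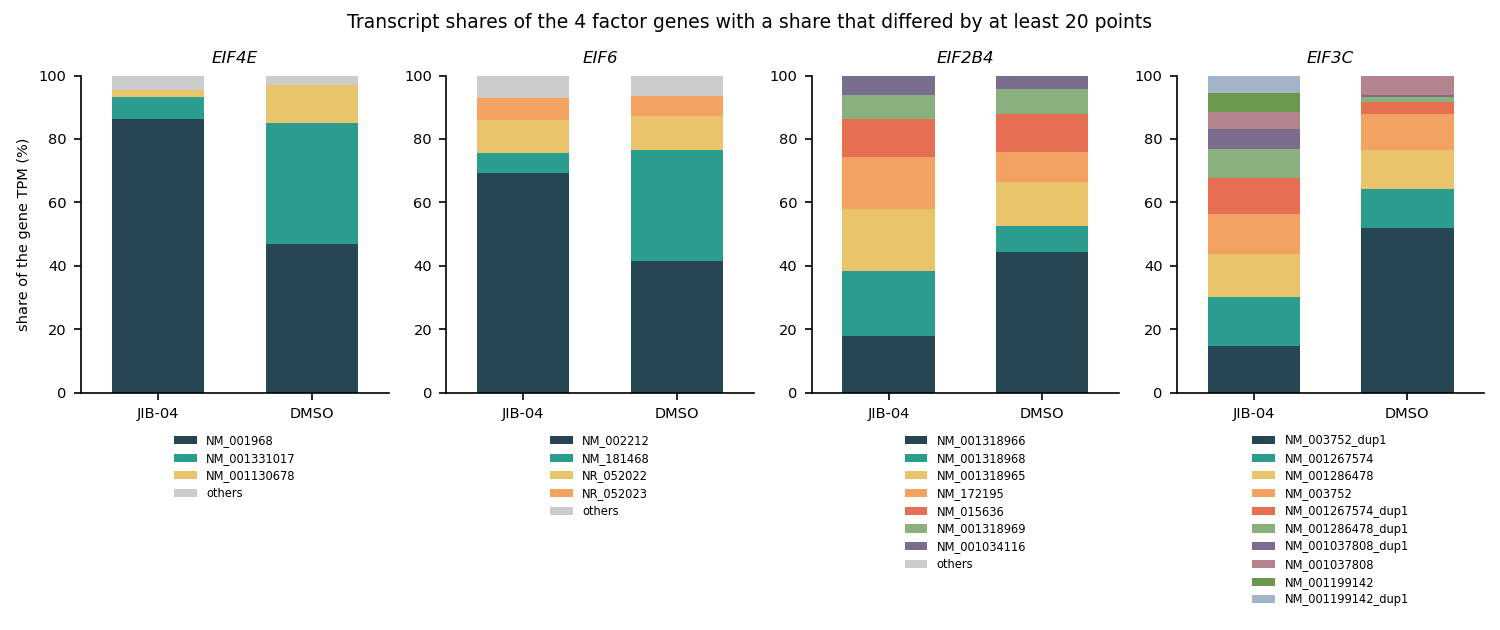
Share of the gene TPM held by each annotated transcript in the JIB-04 library (left bar) and the DMSO library (right bar) for EIF4E, EIF6, EIF2B4 and EIF3C, with transcripts under 5% in both libraries pooled as others. The leading transcript takes more of EIF4E and EIF6 and less of EIF2B4 and EIF3C with JIB-04.

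Other genes of translation were set beside the members by lists. One list held eIF2alpha phosphatase subunits, genes of the stress response downstream of phosphorylated eIF2, and GCN1 and IMPACT. Its median log2 ratio was 0.69 over 15 genes, 10 of them above 0 and 5 below, beside 5739 and 8711 of all described genes. At least 2-fold higher were 6 (40%, beside 5.99% of all described genes), and none was at least 2-fold lower (beside 6.88%). The 6 include SESN2, an inhibitor of mTORC1 signaling (72.1 TPM with JIB-04 and 24.7 TPM with DMSO, 1.51), and PPP1R15A (GADD34), the phosphatase subunit induced by stress (224 TPM with JIB-04 and 80.3 TPM with DMSO, 1.47). ATF4, the transcription factor translated when eIF2 is phosphorylated, had 899.5 TPM with JIB-04 and 557 TPM with DMSO (0.69). The lowest of this list were IMPACT, an inhibitor of GCN2 (-0.58), and the phosphatase subunit PPP1CC (-0.48). The phosphatase subunits thus differed, with PPP1R15B at 0.33, PPP1CB at 0.28 and PPP1CA at -0.11. GCN1 was at -0.19. The list was written with earlier results of these data known.

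The 85 described genes of cytosolic ribosomal proteins had a median log2 ratio of -0.24, near the members' -0.28. Of these 85, 79 were below 0, beside 8711 of all 14450 described genes, and 1 (1.18%) was at least 2-fold lower, beside 6.88%. The 9 genes of termination and recycling had a median of -0.23, and ABCE1, which splits ribosomes after termination, had 38.2 TPM with JIB-04 and 89.7 TPM with DMSO (-1.21), while its partner PELO was at 0.80. The 11 genes of selenocysteine incorporation and of mitochondrial factors had the lowest median, -0.65, with the recycling factor MRRF lowest (-1.12). At least 1.5-fold lower were 6 of the 11 (54.5%), beside 21.0% of all described genes. Among 12 enzymes of the diphthamide of eEF2 and the hypusine of eIF5A, the median was -0.30. At least 2-fold lower were 3 of the 12 (25%, beside 6.88% of all described genes), the diphthamide genes DPH5 (-1.16), DPH2 (-1.03) and DPH6 (-1.02). The polyamine enzymes in that list differed, with SMS at 0.79, ODC1 at 0.64 and SRM at -0.93. The 16 other initiation factors and helicases had a median of -0.20, from MIF4GD (-1.23) to MKNK2 (0.61), and the 6 poly(A)-binding proteins and partners had a median of -0.06, with PAIP2 highest (0.90).

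**Figure D5:**
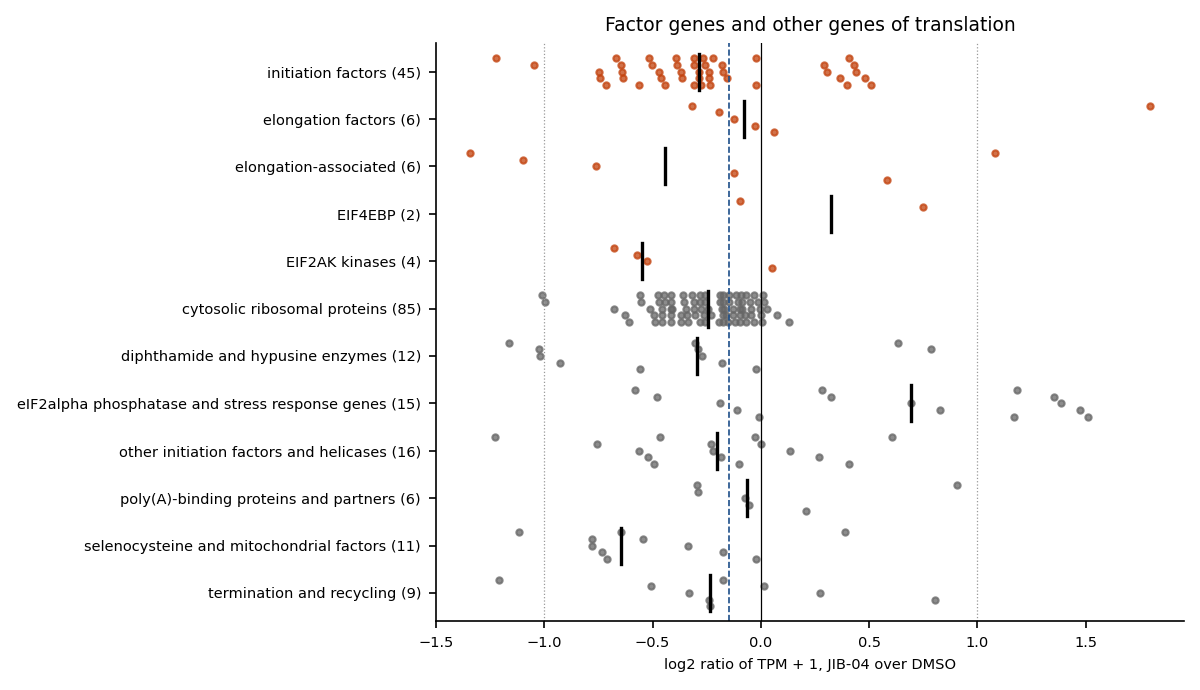
Log2 ratio of TPM + 1, JIB-04 over DMSO, of members by class (top 5 rows, colored) and of 7 other lists of translation genes (gray), each point a gene, black bars the medians and the number of genes in brackets. Dashed and dotted lines mark the median of all described genes and 2-fold. The eIF2alpha phosphatase and stress response list has its median at 0.69 and the EIF2AK kinases at -0.55.

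The labelled cell line was checked by markers. Of 9 hepatocyte lineage genes, 6 had at least 10 TPM in both libraries, among them HNF4A (72.3 TPM with JIB-04 and 71.9 TPM with DMSO), while ALB, TTR and APOA1 did not. Of the 3 leukocyte markers, PTPRC was listed at 0 in both libraries and CD3E had under 0.1 TPM in each, but CD68 had 137 TPM with JIB-04 and 97.0 TPM with DMSO. Of the stellate and fibroblast markers, COL1A1 had 10.6 TPM with JIB-04 and 16.0 TPM with DMSO, and PDGFRB had 0.071 TPM with JIB-04 and 0.184 TPM with DMSO. The endothelial markers PECAM1 and VWF summed to 0.342 TPM with JIB-04 and 0.537 TPM with DMSO. Their part in the members' values was not tested.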

How the data were processed

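RNA of PLC/PRF/5 cells, 1 library per condition, was prepared with the TruSeq Stranded mRNA LT kit. Per the submitters' processing notes, reads went through StringTie 1.3.3b after HISAT2 2.0.5 and Bowtie2 2.2.6, with FastQC 0.11.5 and Trimmomatic 0.32 also named, on hg19. Per the file headers, StringTie was run on annotated RefSeq transcripts only and used strand. The authors deposited coverage, FPKM and TPM for each transcript, and no read counts.

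TPM was summed per gene ID, and symbols came from a RefSeq gene table of GRCh38.p14 (27559 of 27685 IDs), as did the start windows. Genes with at least 1 TPM in either library were described. Log2 ratios use TPM + 1, and calls are 2-fold and 1.5-fold. A gene's fragments were its aligned bases (coverage times length) divided by 202, the value seen most often among weakly covered genes with 1 transcript, of which 31.3% (JIB-04) and 32.2% (DMSO) lay within 2 bases of a whole multiple. Intervals are exact conditional binomial (Clopper-Pearson, 95%). The scripts were tested on simulated data. Exon coverage was read for genes with at least 3 exons and a coverage of at least 5 on both the inner and the last exons in either library.

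Named members are all past 1.5-fold, the highest and lowest of each factor, and fixed regulators; in the other lists, the highest and lowest with a mean of at least 5 TPM. ATF4, SESN2, PPP1R15A and other examples follow that rule or were chosen after their values were seen. The members, lists and alternatives were chosen with earlier results of these data known. Alternatives tried were FPKM, pseudocounts of 0.1 and 5, a filter of 5 TPM or none, a median scaling (genes with at least 10 TPM in both libraries), the leading transcript, leaving out shared genes and a 1.5-fold call, and, chosen after seeing the data, the inner exons alone and EIF3C with EIF3CL as 1 gene. Python 3.11.15, numpy 2.4.6, pandas 2.3.3, SciPy 1.17.1 and matplotlib 3.10.9 were used.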

Additional observations from a re-analysis of the deposited data

How the results depend on the processing

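No paired analysis was possible because there is 1 library per condition, and for the same reason no replicate could be left out. The count of members at least 2-fold higher was 2 and became 1, EEF1A2, with FPKM, with a pseudocount of 5 and on the inner exons alone, the last chosen after seeing the data. The count at least 2-fold lower was 4 and became 8 with the leading transcript alone, 2 under the median scaling, and 13 at 1.5-fold. The members' median log2 ratio was -0.28, and -0.13 with that scaling. On the inner exons EIF1AD was at 0.25 and EIF5 at 0.26, both opposite to their TPM, as were EIF5A2, EIF3CL, EIF4B and EIF4G2, and the EIF2AK median was -0.21 in place of -0.55. Of the log2 ratios of members, 53 of 65 left their counting interval with the scaling, 18 of 65 with the leading transcript, 20 of 63 on the inner exons besides EIF1AD, 5 of 65 with a pseudocount of 5 and 4 of 64 with FPKM. The median of the 6 elongation genes was -0.08 and became 0.08 with the scaling. With 1 library per condition, the counting intervals, narrow for abundant genes such as EEF1A1 and wide for EIF5AL1 or EEF1AKMT1, do not limit how far replicate cultures could differ, and none of the differences has a replicate check.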
